A study of Mus musculus with 8 samples.

Results

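Clone 1 is 1 of 2 clones of mouse MLL-AF9 cells in which the genes Runx1 and Cbfb were made removable with 4-hydroxytamoxifen (4OHT), and it gave 4 of the 8 arrays of the study. Its members were taken from the sample titles: 2 arrays of ethanol cultures (control) and 2 arrays of 4OHT cultures (labelled deleted), matched by the biological replicate number in the title. The matched arrays are called pair 1 and pair 2. All cultures, controls included, derive from c-Kit+ bone marrow cells of Runx1/Cbfb double floxed mice, carry the MLL-AF9 fusion and CreERT2 with a puromycin marker, and had been replated several times under puromycin. They were grown in M3434 methylcellulose, a semi-solid medium with cytokines, and received ethanol or 4OHT at 1 µM for 24 h. Clone 2 was treated in the same way and gave the other 4 arrays. The pairs are repeats of 1 clone, so p-values do not measure the spread between clones. They rest on the spread between pairs within both clones and on spread borrowed from other genes. No culture received 4OHT without floxed genes, so the effects of 4OHT and of active Cre are part of every difference given here and cannot be told apart from the effect of deletion. Ages and sexes of the donor mice are not given in the labels.

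RUNX1 is a DNA-binding transcription factor required for definitive blood formation, and CBFB is the subunit that all RUNX proteins bind to hold DNA firmly. Both are frequent targets of leukaemic fusions, and RUNX1 is known in myeloid cells for acting on genes of granulocyte and monocyte differentiation, among them other transcription factors. MLL-AF9 is a leukaemic fusion that keeps Hoxa genes and Meis1 on and holds myeloid progenitors in a growing state. CreERT2 stays inactive until 4OHT binds it, after which it moves to the nucleus and cuts out DNA between loxP sites.

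Expression was measured on Affymetrix whole-transcript arrays, and levels are RMA values on the log2 scale, so that a difference of 1 is a 2-fold change. Levels of different probe sets are not on 1 scale, so tests compare only levels of the same probe set, and levels given for several genes describe each gene alone. Array medians lay between 6.26 and 6.39 over the 8 arrays. Correlations across 35556 probe sets were 0.992 to 0.997 among the arrays of clone 1. Across the clones they were 0.977 to 0.991.

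Marker genes of the labelled cell type and of other cells were read in each array of clone 1. The 9 genes set down for MLL-AF9 myeloid progenitors had a mean level of 10.73 and 10.77 in the control arrays and 10.73 and 10.70 in the labelled deleted arrays. Elane (neutrophil elastase) and Mpo (myeloperoxidase) read 13.33 and 12.96 in the control array of pair 1. For markers of other cells a marrow culture could hold, mean levels ran from 4.84 for mast cells to 6.17 for erythroid cells over the 4 arrays. Among the macrophage markers, the F4/80 gene Adgre1 read 8.45 to 8.95, and C1qa, C1qb, Mrc1 and Msr1 read 5.89 or less. Since probe sets differ in brightness, these levels alone do not settle which cells were present. None of the marker genes passed the test for a 4OHT effect. In bulk cultures, fewer cells of a type and less RNA per cell cannot be told apart.

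**Figure D1:**
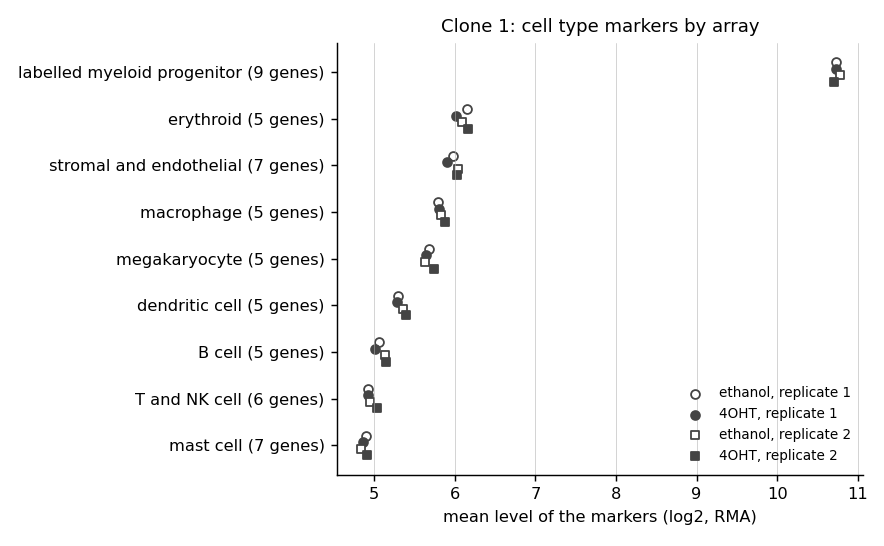
Mean log2 level (x axis, RMA) of the markers of each cell type (rows, number of genes in brackets) in the 4 arrays of clone 1, with open symbols for ethanol and filled symbols for 4OHT. The myeloid progenitor markers lay at 10.70 to 10.77 in all 4 arrays and those of the other sets between 4.84 and 6.17, and within each set the ethanol and 4OHT symbols lie close together.

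The targeted genes were read against the labels. For Runx1, signal went up where the label says the gene was deleted: 10.05 and 10.12 in the control arrays of pairs 1 and 2, and 10.58 and 10.64 in their labelled deleted partners. The groups did not overlap, and the pair differences were 0.53 and 0.53. The fitted rise was 1.44-fold (log2 difference 0.53 ± 0.06, SE, n = 2 pairs; limma adjusted p = 0.000313). Cbfb read 10.02 and 9.97 in control arrays and 9.81 and 9.89 in labelled deleted arrays. These groups did not overlap either, but the difference of -0.14 ± 0.07 (SE, n = 2 pairs) did not pass (limma adjusted p = 1.00). Runx3, another RUNX family gene, did not pass either (0.05 ± 0.07, SE, n = 2 pairs). Runx1 and Cbfb were each measured by 1 probe set. Its probes can lie outside the floxed exons, so these signals check the label only in part and do not test the deletion. Runx1 signal was also higher in clone 2, by 0.56 and 0.48 in its pairs. Whether the genes were cut was not tested, so the term labelled deleted is kept throughout, and directions follow the label.

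Promoter windows of the genes that changed in clone 1 were read from RefSeq (GRCm38.p6), 250 bases before to 50 bases after a gene's start. They are shown because RUNX proteins are known to bind the letters TGTGGT or TGCGGT, which were searched on both strands. Of all 32851 windows, 22.4% held them. Of the 36 genes called below, 25 matched a window by symbol and 5 of these held the letters in their first window, 3 of 9 that rose and 2 of 16 that fell, against 21.3% of the first windows of the 15614 tested genes with one. The windows printed are, per direction, up to 2 with the letters and 1 without, by smallest p, 5′ to 3′ on the gene's strand. Capitals mark the letters searched, or their reverse complement where the match is on the opposite strand.
Runx1, rose, chr16:92826025-92826324, minus strand: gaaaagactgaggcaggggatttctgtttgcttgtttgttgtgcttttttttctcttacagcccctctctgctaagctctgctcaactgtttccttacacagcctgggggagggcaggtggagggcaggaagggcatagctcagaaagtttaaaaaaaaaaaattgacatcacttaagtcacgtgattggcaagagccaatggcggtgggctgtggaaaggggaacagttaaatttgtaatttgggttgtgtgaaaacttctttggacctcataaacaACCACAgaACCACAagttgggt
Elovl6, rose, chr3:129532136-129532435, plus strand: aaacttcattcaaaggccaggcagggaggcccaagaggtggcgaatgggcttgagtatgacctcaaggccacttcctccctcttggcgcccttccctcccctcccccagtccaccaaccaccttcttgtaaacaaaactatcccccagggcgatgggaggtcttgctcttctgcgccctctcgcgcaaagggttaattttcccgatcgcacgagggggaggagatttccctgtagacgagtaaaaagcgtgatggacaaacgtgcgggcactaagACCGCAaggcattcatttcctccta
Calcrl, rose, chr2:84425217-84425516, minus strand: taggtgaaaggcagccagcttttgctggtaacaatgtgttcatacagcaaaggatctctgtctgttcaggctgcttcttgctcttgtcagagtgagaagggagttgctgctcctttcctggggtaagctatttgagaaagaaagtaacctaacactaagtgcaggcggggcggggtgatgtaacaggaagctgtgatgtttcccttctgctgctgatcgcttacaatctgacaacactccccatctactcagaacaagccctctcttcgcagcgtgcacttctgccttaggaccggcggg
Atp1b1, fell, chr1:164458306-164458605, minus strand: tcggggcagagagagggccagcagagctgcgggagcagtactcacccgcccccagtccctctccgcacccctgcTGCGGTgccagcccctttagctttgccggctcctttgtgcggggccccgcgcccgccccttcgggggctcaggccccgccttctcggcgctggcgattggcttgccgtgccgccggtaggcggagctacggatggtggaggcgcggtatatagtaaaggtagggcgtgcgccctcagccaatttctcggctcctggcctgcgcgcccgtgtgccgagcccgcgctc
Tex2, fell, chr11:106612881-106613180, minus strand: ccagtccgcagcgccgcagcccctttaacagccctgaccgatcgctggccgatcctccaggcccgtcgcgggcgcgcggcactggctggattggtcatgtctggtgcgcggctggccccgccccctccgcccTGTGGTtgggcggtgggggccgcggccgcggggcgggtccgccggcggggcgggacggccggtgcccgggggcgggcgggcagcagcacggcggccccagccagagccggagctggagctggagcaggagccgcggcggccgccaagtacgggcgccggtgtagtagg
Ifitm1, fell, chr7:140967826-140968125, plus strand: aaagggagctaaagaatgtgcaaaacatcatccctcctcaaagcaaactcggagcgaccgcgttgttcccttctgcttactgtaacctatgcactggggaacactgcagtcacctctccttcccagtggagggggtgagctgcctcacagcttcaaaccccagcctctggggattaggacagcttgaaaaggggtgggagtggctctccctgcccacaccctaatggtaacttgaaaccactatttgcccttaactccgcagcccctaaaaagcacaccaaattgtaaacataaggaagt
The Runx1 window, the more upstream of 2 for that gene, held TGTGGT on the opposite strand at 2 places, 29 and 37 bases after the start. Elovl6 held TGCGGT on the opposite strand 26 bases after its start. In the windows of genes that fell, Atp1b1 held TGCGGT at -176 and Tex2 held TGTGGT at -118 on the gene's own strand. A match describes these letters in this window, not a bound site.

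The first question was what 4OHT changed in clone 1 in both of its pairs. In the labelled deleted arrays, 36 of 19938 genes passed limma's test at an adjusted p under 0.05, or 0.181% of those tested. Of these, 12 rose (0.0602%) and 24 fell (0.120%). Most changes were small: 18 of the 36 were over 1.5-fold (8 up and 10 down), and 2 were over 2-fold, the rise of Mamdc2 and the fall of Thbs1. The median size over the 36 was 0.57 on the log2 scale, against 0.06 over all genes tested. Levels of control and labelled deleted arrays did not overlap for any of the 36, but this held for 24.8% of all genes, which is the background for that property.

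This count depends on how the spread was modelled. With 2 pairs per clone the main fit had 2 residual degrees of freedom. A fit without the pairing called 1 gene, Thbs1 (336 at an unadjusted p under 0.05). Paired fits called 0 genes both without the variance trend (601 unadjusted) and with all 35556 probe sets tested (1236 unadjusted). The paired fit of the arrays of clone 1 alone called 269. With a pair of clone 1 left out, 1 pair of that clone remains, so its own spread does not enter the test. Most of the 36 calls, those of Cebpa and Cebpe among them, were lost in at least 1 of these fits. A call kept there does not measure how well the pairs of clone 1 match.

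A description without a variance model drew on the same pair differences as the test, so it is not separate support. Over 1.5-fold (0.58 on the log2 scale) in the same direction in both pairs were 6 genes up (0.0301%) and 11 down (0.0552%), and no gene moved that far in opposite directions. Of these 17, 15 also passed the test. The exceptions were Megf10, an engulfment receptor, and Ifi209, an interferon-inducible gene. Megf10 differed by -0.69 and -0.64 in pairs 1 and 2 (limma adjusted p = 0.0933). Ifi209 differed by 0.64 and 0.65 (limma adjusted p = 0.140).

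Across all genes the pairs of clone 1 showed almost no relation. The pair differences across all 19938 genes correlated at r = 0.08 (Pearson, across genes of 4 arrays normalized together, which are not independent replicates). By rank the correlation was -0.03 (Spearman). The same sign in both pairs was seen for 26.7% of genes upward and 21.8% downward, which together is 48.5%. Pair 1 was wider, with quartiles of -0.10 and 0.09 against -0.05 and 0.08 in pair 2, and the medians were 0.003 and 0.009. Over 1.5-fold there were 46 genes higher and 26 lower in pair 1, against 8 and 26 in pair 2. Of the 46 that were higher in pair 1, 35 were also above 0 in pair 2, and of the 26 that were lower, 18 were below 0. Of the 26 that were lower in pair 2, 24 were also below 0 in pair 1.

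Some genes differed in size or sign between the pairs, and the following were chosen after their values were seen. Scarna13, a small Cajal body RNA, differed by 1.45 in pair 1 and by -0.14 in pair 2, and the long nuclear RNA Malat1 by 0.75 and -0.22. The oxysterol receptor gene Gpr183 and the granule gene Olfm4 were lower in both pairs but further from 0 in pair 2, at -0.41 and -0.73, and at -0.33 and -0.71. None of these passed the test.

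**Figure D2:**
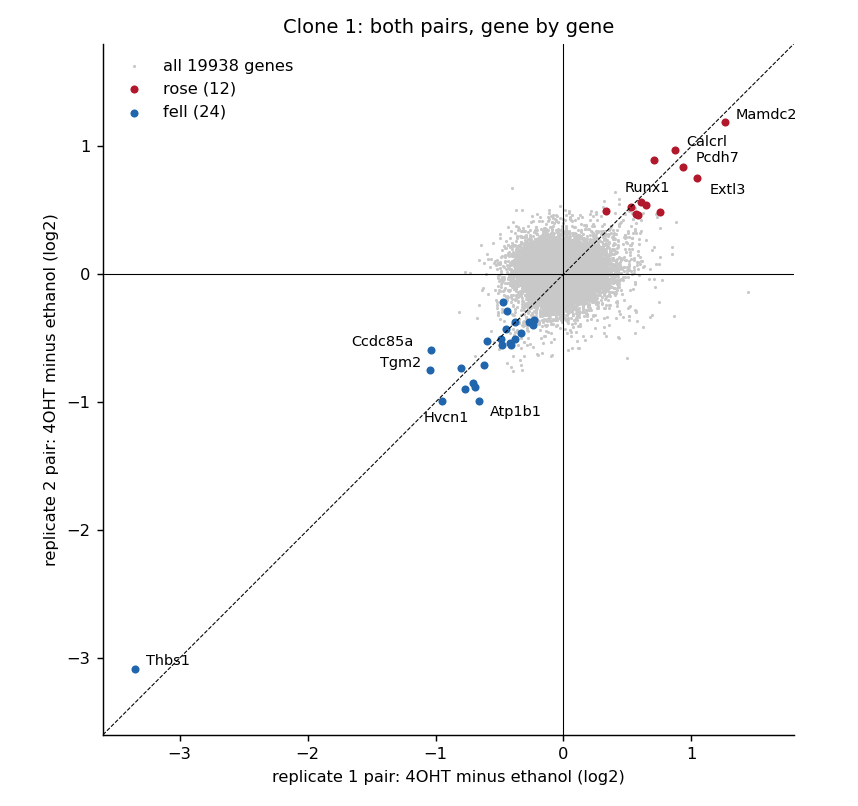
Log2 difference between 4OHT and ethanol arrays for each of 19938 genes in pair 1 (x axis) and pair 2 (y axis) of clone 1, with genes past the limma threshold in red (12 rose) or blue (24 fell) and equality as a dashed line. Most genes lie in a round cloud about 0, and the 36 called genes lie along the line, with Thbs1 alone at -3.35 and -3.08.

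Among genes of the cell surface and its surroundings, Thbs1 had the largest change of any gene that passed. It encodes thrombospondin-1, a secreted matricellular protein that binds integrins, CD36 and CD47 and can activate latent TGF-beta. Its level was 11.17 and 10.41 in the control arrays of pairs 1 and 2 and 7.82 and 7.33 in the labelled deleted arrays. Both control arrays lay far above both labelled deleted arrays, and the pair differences were -3.35 and -3.08. Thbs1 fell 9.29-fold (log2 difference -3.22 ± 0.19, SE, n = 2 pairs; limma adjusted p = 4.12e-07). The call ended with robust moderation (adjusted p = 0.0558), without the variance trend (0.112) and with all probe sets tested (0.250), all in limma.

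No thrombospondin receptor gene passed the test. None of 26 measured genes of the list of integrins and thrombospondin receptors passed, with 12 below 0 in both pairs and 6 above. Cd47 differed by 0.12 and -0.02, Cd36 by 0.01 and -0.09, and Itgb3 by 0.15 and 0.13. The member with the smallest p was the adhesion molecule gene Vcam1, at -0.31 and -0.53 (limma adjusted p = 0.142). Over all genes the shares below and above 0 in both pairs were 21.8% and 26.7%. These shares, and 0.181% for passing the test, are the background for every list given below.

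Mamdc2 was the riser of largest size. It encodes a secreted matrix protein with MAM domains. Levels were 7.72 and 7.58 in control arrays and 8.98 and 8.77 in labelled deleted arrays, with no overlap. Mamdc2 rose 2.34-fold (1.23 ± 0.10, SE, n = 2 pairs; limma adjusted p = 2.40e-05). Mamdc2 and Thbs1 were the members that passed among 28 measured secreted matrix genes, 1 in each direction. In both pairs 8 of the 28 (28.6%) lay above 0 and 8 below, near the 26.7% and 21.8% of all genes. The list's median was -0.03, with pair medians of -0.07 and 0.03.

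Several receptors changed. Calcrl, the receptor subunit for adrenomedullin and calcitonin gene-related peptide, read 8.77 and 8.37 in control arrays and 9.64 and 9.34 in labelled deleted arrays. The arrays of pair 1 were the higher in both groups, and the groups did not overlap. Calcrl rose 1.89-fold (0.92 ± 0.09, SE, n = 2 pairs; limma adjusted p = 9.00e-05). Btla, an inhibitory receptor of lymphoid and myeloid cells, rose by 0.52 ± 0.09, with pair differences of 0.58 and 0.46. Ly96, the MD-2 partner with which TLR4 binds endotoxin, rose by 0.62 ± 0.11, with 0.76 and 0.48. It was the 1 member that passed among 26 measured genes of toll-like receptors and NF-kB.

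Other surface molecules fell. Pdgfrb, a receptor for platelet-derived growth factor, read 8.13 and 8.44 in control arrays and 7.44 and 7.56 in labelled deleted arrays, and fell by 0.79 ± 0.13 (SE, n = 2 pairs). Pdgfrb is known as a stromal gene. The mean level of the 7 stromal and endothelial markers was 5.98 and 6.04 in the control arrays and 5.91 and 6.03 in the labelled deleted arrays. Among them Col1a1 read 7.08 to 7.33 and Dcn 4.44 to 4.49, and none passed the test. The part of such cells in the fall of Pdgfrb was not tested. Lilr4b, an inhibitory immunoglobulin-like receptor with close paralogs from which an array probe set may not be separable, fell by 0.78 ± 0.12, with -0.71 and -0.85. Sema4a, a semaphorin of immune cells, fell by 0.52 ± 0.06, with -0.48 and -0.56. Pcdh7, a protocadherin, went the other way and rose by 0.89 ± 0.13, with 0.93 and 0.84.

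Of the interferon-induced transmembrane proteins, which restrict virus entry, Ifitm1 fell by 0.56 ± 0.05 and Ifitm3 by 0.35 ± 0.06 (SE, n = 2 pairs). Ifitm1 read 11.74 and 11.60 in control arrays and 11.14 and 11.08 in labelled deleted arrays. Ifitm3 was less even, with pair differences of -0.47 and -0.22. They were the members that passed among 28 measured interferon response genes, whose median was -0.01, with 10 genes above 0 and 8 below 0 in both pairs. These are 35.7% and 28.6%, against 26.7% and 21.8% of all genes. Related sequences of the Ifitm cluster may share probes.

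Hvcn1, Ncf1 and Atp1b1 also fell. Hvcn1 encodes the voltage-gated proton channel that lets protons out while NADPH oxidase works. It read 10.12 and 10.11 in control arrays and 9.17 and 9.12 in labelled deleted arrays, so replicates lay within 0.05 of each other in each group. Hvcn1 fell 1.96-fold (-0.97 ± 0.09, SE, n = 2 pairs; limma adjusted p = 5.15e-05). Ncf1, the p47phox subunit of that oxidase, fell by 0.40 ± 0.06, with -0.33 and -0.46. Atp1b1, the beta 1 chain of the Na,K-ATPase, read 10.04 and 10.12 in control arrays and 9.38 and 9.13 in labelled deleted arrays, and fell 1.77-fold (limma adjusted p = 0.0242). Its call was kept in 10 of 16 alternative fits and ended, among others, with robust moderation (adjusted p = 0.152 in limma).

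Among the fallers were 2 transcription factor genes of granulocyte development. Cebpa, required to form granulocyte-monocyte progenitors, read 9.55 and 9.84 in control arrays and 9.14 and 9.29 in labelled deleted arrays. Cebpe, which drives later granulocyte maturation, read 9.91 and 9.93 against 9.47 and 9.51. Neither gene's groups overlapped. Cebpa fell 1.40-fold (-0.48 ± 0.09, SE, n = 2 pairs; limma adjusted p = 0.0414) and Cebpe 1.35-fold (-0.44 ± 0.07; limma adjusted p = 0.00975). Each call was kept in 9 of 16 alternative fits. Both ended, among others, when either pair of clone 1 was left out and when arrays were centred on their median. Spi1, the gene of PU.1, differed by -0.15 and -0.18 and did not pass (limma adjusted p = 0.335).

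Cebpa and Cebpe were the members that passed among 25 measured genes of a list of reported RUNX1 targets. In both pairs 13 of the 25 (52%) were below 0 and 2 were above, against 21.8% and 26.7% of all genes. The list's median was small, at -0.05. Kit, the stem cell factor receptor, differed by -0.19 and -0.38 (limma adjusted p = 0.249), and Bcl2, a survival gene, by -0.10 and -0.37 (limma adjusted p = 1.00). In the RUNX, CBFB and ETO list of 9 measured genes, Runx1 alone passed. Cbfa2t3, the ETO2 corepressor gene, differed by -0.40 and -0.39 (limma adjusted p = 0.105).

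Granule genes were examined by stage. Among 23 measured secondary and late neutrophil genes, Cebpe and Hp passed, both lower, and the median was the lowest of all 30 lists, at -0.14 (-0.12 in pair 1 and -0.16 in pair 2). In both pairs 12 of these 23 (52.2%) lay below 0 and 5 (21.7%) above, against 21.8% and 26.7% of all genes. Hp, the haptoglobin gene, fell by 0.36 ± 0.05, with -0.44 and -0.28. Members that did not pass included the granule genes Ngp, at -0.36 and -0.55, Camp, at -0.52 and -0.24, and Lcn2, at -0.41 and -0.16. Csf3r, the granulocyte colony-stimulating factor receptor gene, and Anxa1 were above 0 in both pairs, at 0.25 and 0.22, and at 0.39 and 0.23. Serpinb1a, an inhibitor of neutrophil elastase that was in no such list, fell by 0.29 ± 0.05.

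Of 15 measured primary granule genes, Hdc passed. It encodes histidine decarboxylase, which makes histamine. Hdc read 8.78 and 8.76 in control arrays and 9.42 and 9.30 in labelled deleted arrays, and rose 1.51-fold (0.59 ± 0.09, SE, n = 2 pairs; limma adjusted p = 0.0139). In both pairs 10 of the 15 (66.7%) lay below 0 and 3 (20%) above, Hdc included. Over all genes these shares were 21.8% and 26.7%. Rnase2a differed by -0.34 and -0.67, while Mpo and Elane differed by -0.02 and -0.08, and by -0.06 and -0.02. Hdc was also the 1 member that passed among 21 measured mast cell, basophil and eosinophil genes. The mast cell markers stayed between 4.84 and 4.92 in the mean of each array.

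On the monocyte side, F13a1 passed among 22 measured monocyte and macrophage genes. It encodes the catalytic subunit of clotting factor XIII, a transglutaminase that monocytes express. Its level was 10.15 and 9.92 in control arrays and 10.76 and 10.49 in labelled deleted arrays. F13a1 rose by 0.59 ± 0.08 (SE, n = 2 pairs; limma adjusted p = 0.00613), and its groups did not overlap. In both pairs 11 of the 22 (50%) lay above 0 and 7 (31.8%) below, against 26.7% and 21.8% of all genes. The median, 0.06, was the highest of the 30 lists. Ccr2, the receptor for the chemokine CCL2, differed by 0.44 and 0.40 and did not pass (limma adjusted p = 0.302).

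A further transglutaminase gene, Tgm2, moved in the opposite direction. It read 7.44 and 7.34 in control arrays and 6.39 and 6.59 in labelled deleted arrays, and fell 1.86-fold (-0.90 ± 0.14, SE, n = 2 pairs; limma adjusted p = 0.0115). Its call was kept in 11 of 16 alternative fits and ended, among others, without pair 1.

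Further risers were Extl3, Sgsh, Prdx4 and Elovl6. Extl3 encodes a glycosyltransferase of heparan sulphate synthesis, and Sgsh the lysosomal sulphatase that helps to degrade that chain. Extl3 read 6.09 and 6.297 in control arrays and 7.13 and 7.05 in labelled deleted arrays, and rose 1.86-fold (0.90 ± 0.13, SE, n = 2 pairs; limma adjusted p = 0.00975). Sgsh rose by 0.52 ± 0.09, with 0.57 and 0.47. Prdx4, a peroxiredoxin of the endoplasmic reticulum, read 7.98 and 7.55 in control arrays and 8.69 and 8.44 in labelled deleted arrays, and rose by 0.80 ± 0.12. It was the 1 member that passed among 27 measured genes of unfolded protein and amino acid stress, of which 12 lay below 0 in both pairs and 5 above. These are 44.4% and 18.5%, against 21.8% and 26.7% of all genes. Elovl6, a fatty acid elongase, rose by 0.41 ± 0.06, with 0.34 and 0.49. Its control array of pair 1, at 10.65, lay within 0.03 of the labelled deleted array of pair 2, at 10.67.

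The remaining named genes that fell have varied roles. Ccdc85a, a coiled-coil gene, was the least even of all 36, with differences of -1.03 and -0.59 and a fitted fall of 0.81 ± 0.15 (SE, n = 2 pairs). Myl10, a myosin light chain gene, fell by 0.77 ± 0.13, with -0.80 and -0.73. Chdh, the choline dehydrogenase of mitochondria, fell by 0.67 ± 0.12, with -0.62 and -0.71. Tmed3, a p24 family cargo receptor of the early secretory pathway, fell by 0.50 ± 0.08, and Cpne2, a calcium-dependent membrane-binding copine, by 0.48 ± 0.07. Tex2 fell by 0.45 ± 0.08. Counted among the 36 but not described further are Chst13, Ampd2 and Cd69, which also fell, and 1 gene known by a model name.

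**Figure D3:**
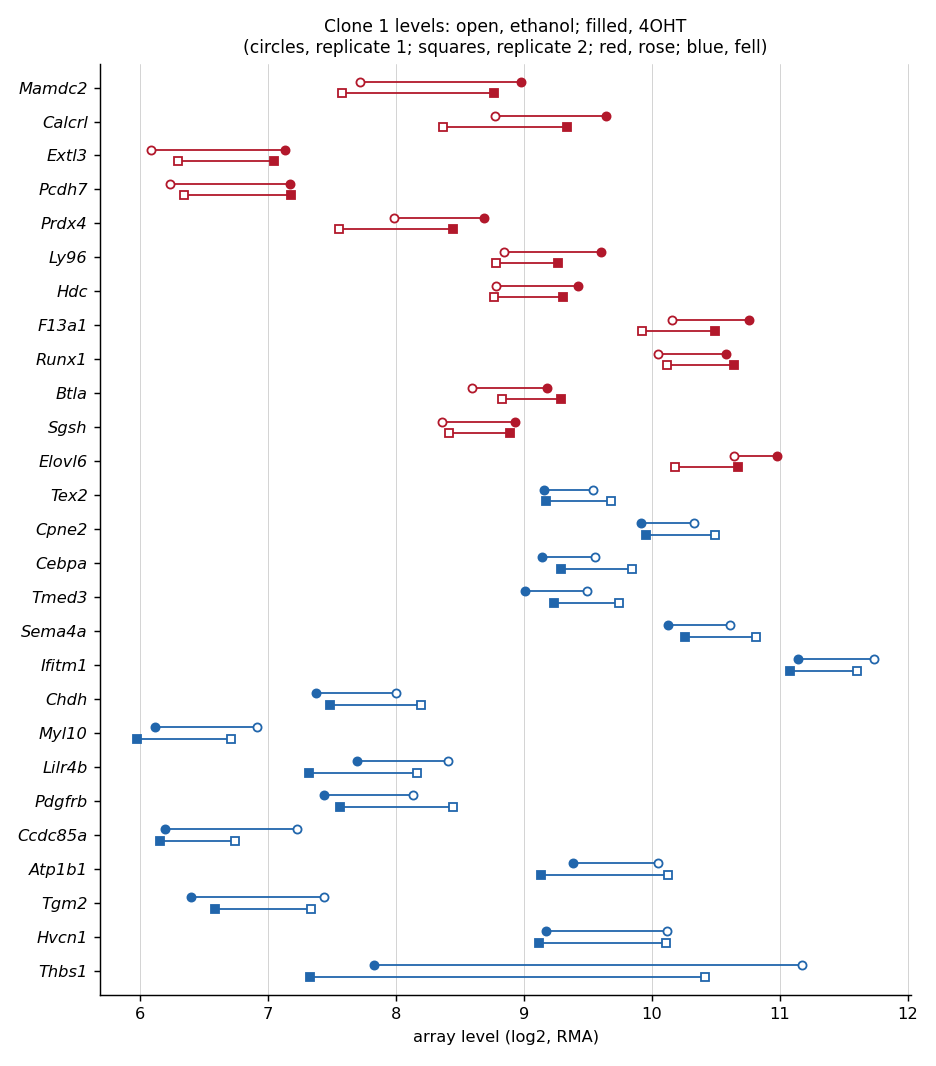
Log2 RMA level (x axis) of 27 named genes past the limma threshold in the 4 arrays of clone 1, with a line joining the ethanol (open) and 4OHT (filled) array of pair 1 (circles) and pair 2 (squares). Each gene moves the same way in both pairs, and Thbs1, from 11.17 to 7.82 and from 10.41 to 7.33, has the longest lines.

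Lists of the MLL fusion and Hoxa program, p53 targets, the cell cycle, survival and MYC genes had no member past the threshold. Over all genes 0.181% were called, so the absence of a call in such short lists is not read as a result. Of 19 measured genes of the MLL fusion and Hoxa program none passed, and Hoxa9 and Meis1 differed by 0.02 ± 0.05 and 0.05 ± 0.07 (SE, n = 2 pairs). Several Hoxa genes were higher in pair 1 and not in pair 2, such as Hoxa5 at 0.34 and -0.05 and Hoxa3 at 0.38 and -0.02. Of 27 measured p53 targets none passed, and their medians were 0.08 in pair 1 and 0.02 in pair 2. Btg2, for example, differed by 0.37 and -0.10. In the cell cycle lists none of 31 S phase, 30 mitotic and 17 D cyclin, CDK4/6 and inhibitor genes passed. The nearest was Cdkn2c, the gene of the CDK4/6 inhibitor p18, at 0.30 and 0.26 (limma adjusted p = 0.0747). In the BCL2 family and among MYC and ribosome biogenesis genes none passed of 22 and 26.

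Over the 30 lists, 597 of 654 distinct genes were measured, 12 lists had a member past the threshold, and no list had more than 2. List medians ran from -0.14 to 0.06, and in 13 lists the pair medians had opposite signs. The 18 lists without a call also include stem and progenitor, chemokine, cytokine receptor, sterol, lysosome, erythroid, megakaryocyte, T and NK cell, and dendritic cell genes. Against 0.181% of all genes called, these lists are described by their counts alone.

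**Figure D4:**
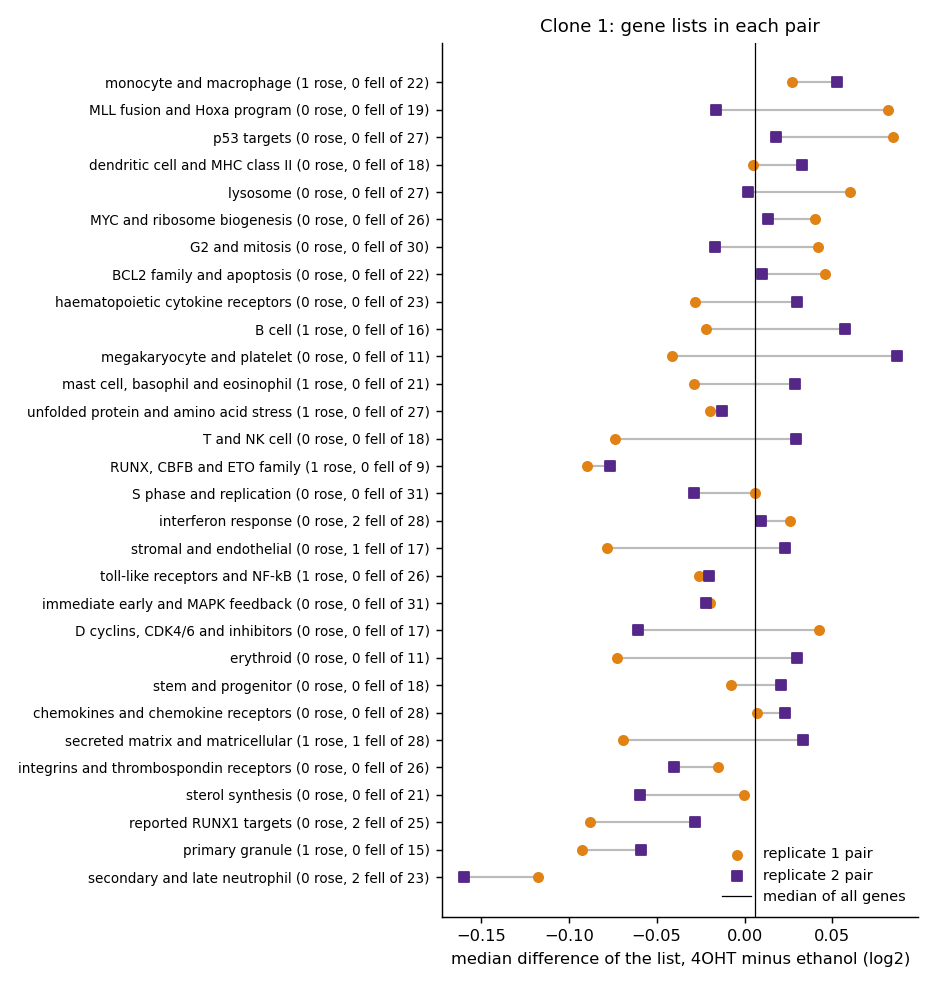
Median log2 difference between 4OHT and ethanol (x axis) over the measured genes of each of 30 lists (rows, with the number past the limma threshold) in pair 1 (circles) and pair 2 (squares) of clone 1. Secondary and late neutrophil genes lie lowest in both pairs, at -0.12 and -0.16, and 13 lists lie on opposite sides of 0 in the 2 pairs.

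The next comparison asked whether the effect in clone 1 differed from that in clone 2. Clone 2 had 136 genes past the limma threshold (0.682% of those tested). Of the 36 genes of clone 1, 27 were among them, which is 75% of the calls of clone 1 and 19.9% of those of clone 2. Both clones were tested with the same fitted spread per gene, so this overlap does not come from independent tests. All 12 risers of clone 1 were also called in clone 2, and 15 of the 24 fallers. The estimate was larger in clone 1 for 16 of the 36, among them 4 of the risers and 12 of the fallers.

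A test of the difference itself, an interaction contrast in the same fit, called 2 genes, or 0.0100% (393 at an unadjusted p under 0.05). F13a1 rose less in clone 1, by 0.59 ± 0.08 against 1.66 ± 0.08 in clone 2 (SE, n = 2 pairs each), a difference of -1.07 ± 0.11 (limma adjusted p = 0.00201). Its control level was higher in clone 1, at 10.15 and 9.92 against 7.91 and 9.01. The labelled deleted arrays stood closer together, at 10.76 and 10.49 in clone 1 and 9.74 and 10.49 in clone 2. Ly6a2, a gene of the Ly6 family of cell surface proteins with near-identical relatives, did not pass in clone 1 (-0.22 ± 0.06; limma adjusted p = 0.465). In clone 2 it fell by 1.00 ± 0.06, and the difference between the clones was 0.78 ± 0.09 (limma adjusted p = 0.00276). Both interaction calls ended without the pairing, without the variance trend and with all probe sets tested, where the count was 0 in each case (178, 304 and 776 at an unadjusted p under 0.05 in limma).

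The pair differences of Thbs1 were -3.35 and -3.08 in clone 1 against -2.17 and -0.96 in clone 2. The difference of -1.65 ± 0.26 (SE, n = 2 pairs each) did not pass (limma adjusted p = 0.0750). With 1 pair left out, the difference moved to -1.04 without pair 2 of clone 2 and to -2.26 without its pair 1. It was -1.52 and -1.78 without pairs 1 and 2 of clone 1. Such a fit drops the spread between the pairs of that clone, so a pass in it is not read as a result. The control level of Thbs1 was 2.59 higher in clone 1 (limma adjusted p = 0.00102), and the labelled deleted level was still 7.82 and 7.33 in clone 1 against 6.56 and 6.71 in clone 2.

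The 9 genes called in clone 1 and not in clone 2 all fell: Hp, Cpne2, Cebpe, Tgm2, Pdgfrb, Myl10, Ifitm3, Chdh and Ccdc85a. For Tgm2 the fall was 0.90 ± 0.14 in clone 1, against a difference of -0.07 ± 0.14 in clone 2. Myl10 stood at -0.77 and -0.01, Cpne2 at -0.48 and -0.07, and Ifitm3 at -0.35 and 0.05. Ccdc85a, at -0.81 in clone 1, was at 0.02 in clone 2, where its control level of 5.04 and 5.41 was already below the labelled deleted level of clone 1, 6.19 and 6.15. For none of the 9 did the difference between clones pass (limma adjusted p from 0.795 to 1.00), so they are not shown to be particular to clone 1.

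**Figure D5:**
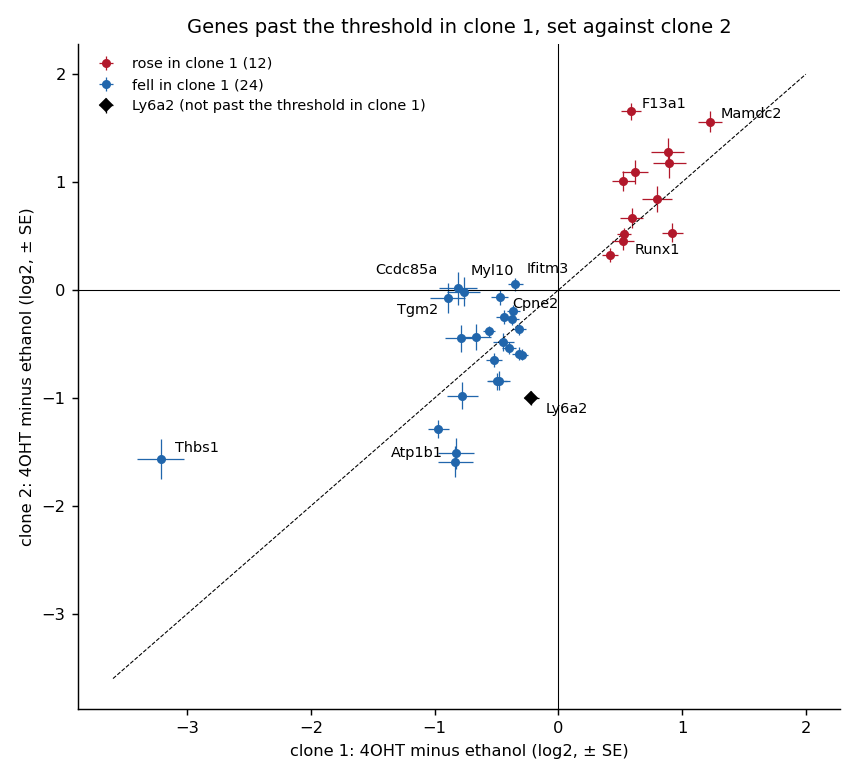
Log2 difference between 4OHT and ethanol, with moderated SE bars, in clone 1 (x axis) and clone 2 (y axis) for the 36 genes past the limma threshold in clone 1 and for Ly6a2. F13a1, at 0.59 and 1.66, and Ly6a2, at -0.22 in clone 1, are the genes whose effects differed between clones by test, and Thbs1, at -3.22 and -1.56, lies farthest from the dashed line of equality, on the side of the larger fall in clone 1, without passing.

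Pairs that share a replicate number also resembled each other across clones. Over 19938 genes, the differences of pair 1 in clone 1 correlated at r = 0.45 with those of pair 1 in clone 2, and at -0.23 with those of pair 2. For pair 2 of clone 1 the values were 0.31 with pair 2 and 0.14 with pair 1 of clone 2. These comparisons share no array, but all 8 arrays were normalized together. They are correlations across genes, given as a description. A term for the number shared by both clones, added after these values were seen, raised the count for clone 1 from 36 to 132 genes in limma. What the number stands for is not given in the labels, and its part in the differences within a pair was not tested.

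The level from which clone 1 started also differed from that of clone 2. In control arrays 792 genes (3.97%) differed between the clones in limma, 472 higher in clone 1 and 320 lower. Eya1, a transcriptional coactivator and phosphatase, read 11.00 and 11.05 in clone 1 and 5.11 and 5.49 in clone 2, and did not change with 4OHT by the test, at 0.01 and -0.05 in the pairs. Rbp4, the plasma retinol carrier, was 4.72 higher in clone 1, and the histone variant gene Macroh2a2 4.03 higher. The Y-linked genes Eif2s3y and Uty were 5.21 and 4.94 higher, and Xist, the RNA that silences an X chromosome in female cells, read 5.14 and 5.09 in clone 1 and 11.17 and 11.24 in clone 2. Cd34, a surface marker of stem and progenitor cells, read 5.77 and 5.92 in clone 1 against 11.11 and 11.55, and Lin28b, an inhibitor of let-7 miRNA processing, 5.39 and 5.34 against 9.48 and 9.43. None of the genes named in this comparison of control levels passed for an effect of 4OHT in clone 1. By Xist and the Y-linked genes, the clones also differ in sex. With 1 culture line per clone, a clone difference cannot be told apart from a difference between donor animals or between sexes.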

How the data were processed

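Total RNA (300 ng per culture) from 8 cultures was labelled with Affymetrix whole-transcript kits, per the labels' protocols. The authors deposited probe set levels on the log2 scale, made with RMA per the submitters' processing notes. Which RMA version and chip definition were used was not given in the sources used. RMA normalizes between arrays, so a shift common to most genes is removed. Values ran from 2.60 to 13.77. The number of arrays limits the precision.

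Of 35556 probe sets, 21789 had 1 gene symbol in the platform annotation, 1621 had several and 12146 were not listed. Symbols were checked by Entrez identifier against RefSeq genes: 91 had no match and no symbol changed. For 999 genes with several probe sets the brightest was kept, which left 19938 genes. Runx2, Trp53 and Cdkn1a were not analysed here.

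limma 3.58.1 in R 4.3.3 was fitted to all 8 arrays with the pair (same clone and replicate number) as a block and an effect per clone, variance trend, 2-sided tests and Benjamini-Hochberg adjustment over 19938 genes at 0.05. Moderation added 13.3 degrees of freedom to the 2 residual ones, and each SE is the moderated one, which borrows spread from clone 2 and from other genes. Control levels were compared without the block. The method was tested on simulated data. Within pairs, control and labelled deleted arrays deviated together from the treatment means over both clones (r = 0.80 and 0.82 in clone 1). These values include the difference between the clones. From the mean of their own clone and treatment, the arrays of a pair deviated together at r = 0.44 in clone 1. The titles give the pairing by number. Alternatives varied the pairing, the arrays fitted, the variance prior, array weights, the probe set rule, a filter on dim genes, scaling and each pair.

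Genes named are a fixed set (Runx1, Cbfb, Runx2, Runx3, Thbs1, Cebpa, Spi1, Kit, Bcl2, Hoxa9, Meis1, Trp53 and Cdkn1a). To these come up to 15 per direction past the threshold by size, up to 6 per direction for the clone difference, for the control level and for genes over 1.5-fold in both pairs that did not pass, up to 3 per list and the 5 brightest called. Other list members and markers named are examples chosen after their values were seen. The members, lists and rule were chosen with earlier results of these data known. Of the 30 lists, those of reported RUNX1 targets and of markers come from general knowledge of the field.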

Additional observations from a re-analysis of the deposited data

Results flagged for a closer look

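The effect of 4OHT on F13a1 differed between the clones by the interaction test, by -1.07 on the log2 scale (clone 1 minus clone 2). F13a1 was higher after 4OHT in 4 of 4 pairs, by 0.61 and 0.57 in clone 1 and by 1.83 and 1.48 in clone 2. The effect on Ly6a2 also differed, by 0.78, with lower values in 4 of 4 pairs. These were the 2 genes past the threshold of 19938 tested for that difference.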

How the results depend on the processing

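With 2 pairs per clone, calls rest on the spread model more than on the differences. No called gene changed direction in any alternative. That was largely fixed in advance, since most alternatives leave the differences as they were and all 36 genes had the same sign in both pairs. Set against 36 genes past the limma threshold for 4OHT in clone 1, there was 1 with no replicate block (no pairing), 0 without the variance trend (601 at an unadjusted p under 0.05) and 0 with all probe sets tested (1236 unadjusted). With the arrays of clone 1 alone there were 269 with the block and 2 without it, and 131 with array weights, 61 after quantile normalization, 59 with arrays centred on their median and 132 with the added treatment-by-number term. Leaving out 1 pair gave 25 to 256. Robust moderation (36), averaged probe sets (38) and a filter on dim genes (39) stayed near the main count. Against 2 genes for the clone difference there were 0 without the block, without the trend or with all probe sets tested, 4 with array weights, 12 with centred arrays and 5 to 224 without 1 pair. Against 792 for the control level there were 1599 with array weights, 477 with all probe sets tested and 385 to 588 without 1 pair. Over 2-fold in both pairs there were 2 genes, against 17 over 1.5-fold. The called genes named kept their calls in 9 to 13 of 16 alternatives, Thbs1 and Hvcn1 in 13. Centring kept 24 of the 36 calls, ending those of Cebpa, Cebpe, Hp and Ifitm3 among others. Some alternatives change the number of arrays or of tests along with the fitted spread. What lies behind each change in count was not tested.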
